A study of Oryza sativa Japonica Group with 41 samples.

Results

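In 686 regions of the rice genome, acetylation of histone H3 at lysine 9 (H3K9ac) in leaves was highest at ZT18. They are called the ZT18-high regions here. H3K9ac peaks of 8 leaf libraries were merged wherever they overlapped by at least 1 bp, which gave 26681 regions, and 18346 of these had a peak in all 8 libraries. A region was selected when its mean tag count, scaled by each library's total over the 18346 regions, was highest at ZT18, when the log2 ratio of its highest to its lowest time mean was at least 0.8, and when both ZT18 libraries lay above both libraries of the lowest time. The 686 regions are 3.74% of the 18346. These leaf values chose the regions, so they are given below as a description with no test, and tests are given only for the seedling libraries, which the selection did not use.

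H3K9ac is written by histone acetyltransferases and erased by histone deacetylases, and it lies mainly around the promoters and the first part of transcribed genes. In leaves, whose photosynthesis and starch turnover follow the day, its level at many genes rises and falls with the daily cycle. Butyrylation and crotonylation of histone lysines (Kbu and Kcr) are related acylations with longer chains than the acetyl group, drawn from other acyl-CoA pools. ZT (zeitgeber time) counts hours from lights on.

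All plants were rice of the cultivar DongJin with no treatment or mutation named other than the 2 stresses, and the labels give 16 h of light and 8 h of dark per day, so that ZT18 falls in the dark and ZT0, ZT6 and ZT12 in or at the edge of the light. The diurnal set was made from leaves of 30-day-old plants at ZT0, ZT6, ZT12 and ZT18, with 2 H3K9ac libraries at each time. The seedling set was made from leaves of 12-day-old seedlings, harvested at ZT12, with H3K9ac, Kbu and Kcr libraries (2 of each) from starved seedlings (48 h of darkness), submerged seedlings (6 h under water) and untreated controls, besides 1 input library from control chromatin. The labels do not say whether the 2 libraries of a group came from separate plants, so the p-values below measure the spread between these libraries, which may be technical.

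The diurnal libraries differed in depth. MACS, the peak caller, used 5914314 tags (aligned reads at distinct positions) in ZT18 replicate 2, after it had removed 60.3% of the tags as repeats of a position, and between 9836714 and 16232431 tags in the other 7. Within the 18346 regions ZT18 replicate 2 held 2795019 tags, against 7747212 in ZT18 replicate 1. A typical ZT18-high region therefore rested on 133 tags in ZT18 replicate 2 and on 396 in replicate 1 (medians). Without ZT18 replicate 2 the same rule took 1086 regions, which overlapped 566 of the 686. Scaling by all tags that MACS used, in place of the tags in shared regions, took 450 regions, which overlapped 427 of the 686.

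The ZT18-high regions had a trough in the middle of the light period more often than at any other time. Levels are given in RPM, the tags of a region per 1000000 tags that the library held in all 18346 regions. Their median level was 32.5 RPM at ZT0, 23.5 at ZT6, 38.3 at ZT12 and 49.8 at ZT18 (medians over 686 regions of the mean of 2 libraries). In single libraries the medians were 32.5 and 32.2 at ZT0, 24.4 and 22.6 at ZT6, 36.7 and 39.4 at ZT12, and 51.1 and 47.6 at ZT18, so the 2 libraries of a time lay closer to each other than to those of any other time. Over all 18346 regions the medians of the 8 libraries ran only between 40.6 and 45.6. The lowest time was ZT6 in 541 of the 686 regions, ZT0 in 117 and ZT12 in 28. The median log2 ratio of ZT18 to ZT6 was 0.99 in the ZT18-high regions and 0.12 over all 18346 regions. With TMM (trimmed mean of M-values), a scale that sets the typical region to no change, the rule took 513 regions, all among the 686.

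The order of the 4 times took 3 common forms. In 313 regions H3K9ac was lowest at ZT6, higher at ZT0, higher again at ZT12 and highest at ZT18, with medians of 29.3 RPM at ZT0, 20.5 at ZT6, 39.3 at ZT12 and 46.0 at ZT18. ZT12, the hour at which the seedlings of the second set were harvested, was thus the second highest time in these regions. In 228 regions the order of ZT12 and ZT0 was the other way, with medians of 44.0 at ZT0, 24.7 at ZT6, 35.8 at ZT12 and 55.4 at ZT18, so ZT0, the start of the light period, came next after ZT18. In 105 regions the level was higher at each later time from ZT0 on, with medians of 24.8, 28.4, 41.7 and 48.2 at ZT0, ZT6, ZT12 and ZT18. The other 40 regions followed 3 rarer orders, of which ZT12 < ZT6 < ZT0 < ZT18 was the most frequent with 21 regions.

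**Figure D1:**
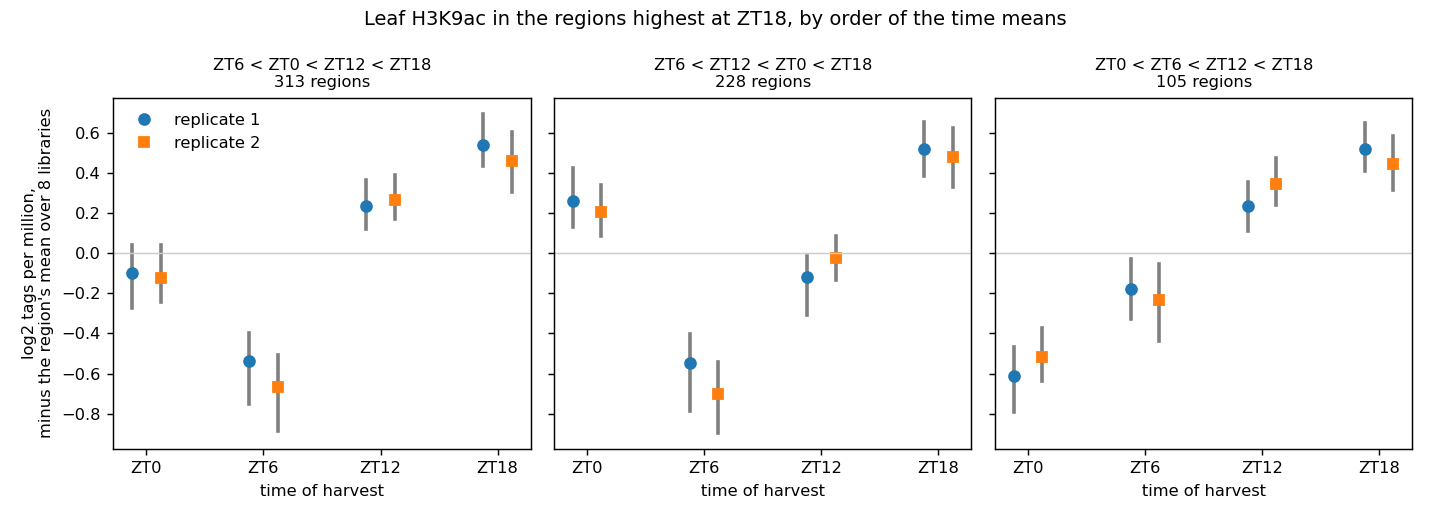
H3K9ac in the leaf libraries for the 3 commonest orders of the time means. The horizontal axis gives the time of harvest and the vertical axis the log2 of RPM minus the region's mean over the 8 libraries; points are medians over the regions (circles replicate 1, squares replicate 2) and bars run between the quartiles. The medians of the 313 and 228 regions in the first 2 panels are lowest at ZT6 in both libraries, and those of the 105 regions in the third at ZT0.

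The distance between ZT18 and the next highest time was small in most regions. The log2 ratio of ZT18 to the lowest time ran from 0.80 to 3.47 with a median of 1.03, which means at least a doubling in 377 regions and at least a 4-fold ratio in 29. The log2 ratio of ZT18 to the next highest time had a median of only 0.21, was under 0.1 in 182 regions and reached 0.5 in 66. That next time was ZT12 in 418 regions, ZT0 in 249 and ZT6 in 19. Both ZT18 libraries lay above all 6 other libraries in 358 regions (52.2%), so in the other 328 at least 1 library of another time reached into the ZT18 range. In 446 regions the limit of 0.8 was passed in replicate 1 and in replicate 2 taken singly.

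The limit cut through a continuous range of ratios. The 3 regions just inside it were chr1:841385-845003, chr3:34174436-34175721 and chr1:6295633-6297589 (positions on the MSU7.0 assembly throughout), each with a log2 ratio of 0.80. At the second of these, ZT18 gave 31.0 and 31.5 RPM against 21.0 and 14.8 at ZT0, its lowest time. The 3 regions just outside, chr4:19738602-19739867, chr4:26781739-26783446 and chr1:29326479-29329071, also had 0.80 after rounding. At the first of them ZT18 gave 44.1 and 44.7 RPM against 24.9 and 26.1 at ZT6.

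The 12 regions with the largest ratio show how the profiles differ at the extreme. The largest ratio, a log2 of 3.47, belonged to chr1:17974965-17978285, where the 2 libraries of each time gave 94.9 and 86.6 RPM at ZT0, 67.8 and 53.3 at ZT6, 7.79 and 17.8 at ZT12, and 153 and 131 at ZT18. H3K9ac there was lowest at ZT12 and highest 6 h later, unlike the usual trough at ZT6, and its called peak measured 757 and 1337 bp at ZT12 and 3269 and 2464 bp at ZT18. At chr4:29498383-29504985 (log2 2.84) the libraries gave 275 and 274 RPM at ZT0, 56.1 and 48.7 at ZT6, 83.2 and 78.0 at ZT12, and 346 and 406 at ZT18. This 6603 bp region was high at ZT18 and ZT0 and low at ZT6 and ZT12, with no overlap between the 2 pairs of times. It had 2 called peaks in ZT0 replicate 1 and in both ZT18 libraries, and without ZT0 replicate 2 in the merging its log2 ratio was 1.48 with ZT0 as the highest time.

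Other large ratios came with a high level from ZT12 on. At chr10:20893274-20897064 (log2 2.77) the libraries gave 55.8 and 57.7 RPM at ZT0, 19.8 and 29.4 at ZT6, 160 and 164 at ZT12, and 157 and 179 at ZT18. The ZT12 and ZT18 libraries overlapped there, so ZT18 did not stand above ZT12, and without ZT18 replicate 2 or with MACS tags as the scale ZT12 was its highest time. The ZT12 and ZT18 libraries also overlapped at chr1:29080878-29082375 (log2 2.74). That region gave 22.4 and 29.3 at ZT0, 14.1 and 7.47 at ZT6, 55.4 and 67.4 at ZT12, and 66.0 and 78.0 at ZT18. The libraries of these 2 times did not overlap at chr1:1214399-1216854 (log2 2.57), which stepped up over the whole series. It gave 13.3 and 13.2 at ZT0, 17.1 and 20.5 at ZT6, 42.7 and 49.7 at ZT12, and 71.1 and 86.6 at ZT18. Nor did they overlap at chr8:21721996-21724519 (log2 2.48), where ZT18 gave 100.2 and 88.0 and no library of another time passed 53.3.

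A pair of regions on chromosome 2 also had ZT12 as the next highest time. At chr2:24829853-24833054 (log2 2.65) ZT18 gave 51.2 and 59.7 RPM and ZT6 9.38 and 8.34, with 33.3 and 32.6 at ZT12 next. At chr2:30094081-30096672 (log2 2.63) ZT18 gave 118 and 139 RPM, just above the 115 and 107 at ZT12, and ZT6 18.2 and 23.3. The lowest time was ZT6 in both, as in 9 of the 12 regions and in 78.9% of all 686.

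At chr4:19770608-19772526 (log2 2.54) ZT18 gave 48.0 and 48.3 RPM against 7.94 and 8.59 at ZT6, and at chr6:14578232-14580764 (log2 2.47) 63.2 and 78.0 against 13.7 and 11.7. At chr1:34311603-34313662 (log2 2.49) the next highest time was ZT0, with 37.7 and 46.2 RPM at ZT0, 9.38 and 10.8 at ZT6, 15.9 and 20.6 at ZT12, and 55.6 and 58.0 at ZT18. This region is a smaller case of the form seen at chr4:29498383-29504985, high at ZT18 and ZT0 and low between them.

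In one of the 12 the 2 libraries of a time disagreed widely. At chr7:23046713-23056795 (log2 2.60) the 2 libraries gave 243 and 24.1 RPM at ZT0, 33.0 and 368 at ZT6, 38.2 and 38.8 at ZT12, and 244 and 223 at ZT18. The called length went with these values, with 5647 and 1178 bp at ZT0 and 1269 and 9996 bp at ZT6, and the 4 libraries with over 200 RPM had 2 called peaks in the region where the other 4 had 1. Without ZT6 replicate 2 its log2 ratio was 0.72 and its highest time ZT12. Exactly 1 called peak in every library was found in 624 of the 686 regions (91.0%), against 93.8% of all 18346 regions.

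**Figure D2:**
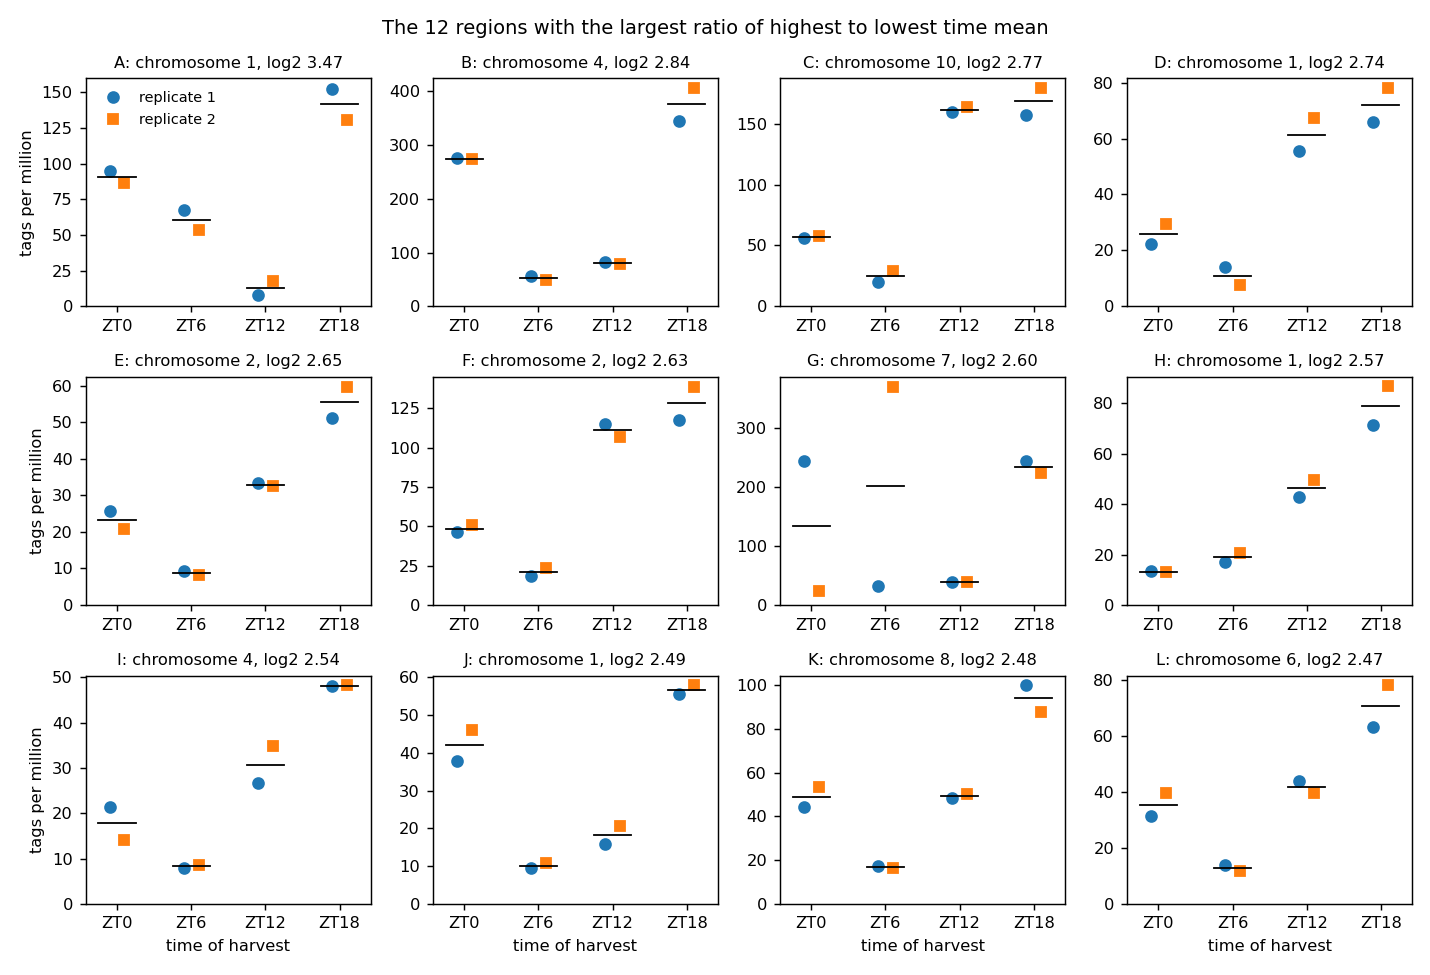
H3K9ac in the 12 ZT18-high regions with the largest ratio of highest to lowest time mean, in order of that ratio from A to L. The horizontal axis gives the time and the vertical axis RPM from 0; circles are replicate 1, squares replicate 2 and lines the mean of the 2. Both ZT18 libraries are above the 6 others in every panel but C, D and G, ZT12 reaches the ZT18 level in C and D, and in G the 2 libraries of ZT0 and of ZT6 lie far apart (243 and 24.1, 33.0 and 368).

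Over the 686 regions the difference between ZT18 and the lowest time was larger in tag density than in called width. The mean log2 ratio over the 2 replicates had a median of 0.88 for tags per kb of called peak and of 0.20 for called length (n = 686 regions). Density was higher at ZT18 than at the lowest time in 683 regions and called length in 581. In the 12 regions with the largest ratios width had a larger part: with tags per kb of called peak their log2 ratios ran from 0.96 to 2.40, against 2.47 to 3.47 with summed tags. The ratio at chr1:17974965-17978285 was then 2.08, and those at chr4:29498383-29504985 and chr7:23046713-23056795 were 0.96 each. Peaks of ZT18-high regions had a median called length of 1609 and 1354.5 bp at ZT18 and of 1184.5 and 1364.5 bp at ZT6, while those of all 18346 regions had 1358 and 1141 bp at ZT18 and 1305 and 1494 bp at ZT6. The regions themselves spanned 645 to 10083 bp with a median of 1720 bp, against a median of 1603 bp over all 18346.

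At their lowest time the ZT18-high regions were weakly acetylated, and at ZT18 they were ordinary. Their median at ZT6 was 24.4 and 22.6 RPM, against 42.8 and 40.6 over all 18346 regions. At ZT18 it was 51.1 and 47.6, against 45.6 and 43.6. The rule favours such a difference, so nothing is read from it. The most tags at ZT18 were found at chr11:12276707-12282509 with 438 and 843 RPM, followed by chr4:29498383-29504985 and by chr6:29341134-29349220 with 349 and 311.

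Some of the strongest regions were also enriched without an antibody. Of the 686 regions, 27 (3.94%) overlapped 1 of the 652 peaks called in the input library, against 100 of all 18346 regions (0.545%), so 27 of these 100 regions were ZT18-high. The input came from 12-day-old seedlings, not from the 30-day-old leaves. In these 27 regions the 2 libraries of a time differed in a regular way: ZT18 replicate 2 lay above ZT18 replicate 1 in 27 of 27 and ZT0 replicate 1 above ZT0 replicate 2 in 26 of 27. In the other 659 regions the same held in 251 and in 353. Both ZT18 libraries were above all 6 others in only 2 of the 27, against 356 of the other 659 (54.0%). The region with the most tags at ZT18, on chromosome 11, is one of the 27, with 723 and 424 RPM at ZT0 against 438 and 843 at ZT18. The part of this background in the profiles was not tested, and the seedling counts below are also given without the 27 regions.

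The ZT18-high regions were spread over the whole genome. Every chromosome held between 32 (chromosome 10) and 98 of them (chromosome 1), and they made up between 3% of the shared regions on chromosome 8 and 4.16% on chromosome 7. The outer 10% of the chromosomes at either end held 158 of them (23.0%), against 25.3% of all shared regions. Their median distance to the nearest other shared region was 6379 bp, against 5869.5 bp over all regions.

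Neighbouring regions were often ZT18-high together. Of the 1331 shared regions that lie next to a ZT18-high region, 132 (9.92%) were ZT18-high themselves, while the share over all regions was 3.74%. They formed 70 neighbouring pairs with a median gap of 7705 bp, and only 7 of the pairs had a gap under 2000 bp. The 1199 neighbours that were not ZT18-high had a median log2 ratio of ZT18 to ZT6 of 0.16, against 0.12 over all 18346 regions. The longest run held 4 regions on chromosome 9 between positions 2705709 and 2793527, of which 3 overlapped input peaks. In the strongest of the 4, chr9:2774662-2776550 (log2 1.74), ZT18 gave 33.4 and 51.5 RPM against 10.8 and 14.7 at ZT6, and ZT0 replicate 1, with 41.4, lay between the 2 ZT18 libraries.

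In seedlings most ZT18-high regions carried all 3 acylation marks. A peak in both control libraries overlapped 626 of the 686 regions for H3K9ac (91.3%), 647 for Kbu (94.3%) and 650 for Kcr (94.8%), against 93.6%, 95.4% and 95.4% of all 18346 regions. All 3 marks were present in 611 (89.1%), against 92.1% of all regions. Kbu and Kcr without H3K9ac were found in 30 (4.37%, against 2.61%), and none of the 3 in 23 (3.35%, against 3.18%). For each mark the share was close to, and a little below, that over all regions.

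Starved seedlings had H3K9ac at fewer of these regions. A peak in both libraries was found at 576 ZT18-high regions (84.0%) in starved seedlings and at 603 (87.9%) in submerged seedlings, against 626 (91.3%) in controls. Over all 18346 regions the shares were 91.2% in starved, 93.7% in submerged and 93.6% in control seedlings. Of the 626 regions marked in both controls, 50 (7.99%) had no peak in either starved library and 16 (2.56%) none in either submerged library, whereas over all regions these shares were 2.84% and 0.716%. For Kbu the shares lost were 1.39% after starvation and 0.618% after submergence, against 0.463% and 0.211% over all regions, and for Kcr 0.769% and 0.923%, against 0.417% and 0.320%, from 4 to 9 regions each. The starved H3K9ac libraries were the shallowest of the seedling set, with 5631625 and 6480371 tags used against 10581295 and 11985500 in controls, and the part of depth in these losses was not tested.

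For the tests, tags of the 18 seedling libraries were summed in merged seedling regions, scaled per mark with TMM (trimmed mean of M-values, which sets the typical region to no change) and compared by the quasi-likelihood test of edgeR, the p-values being adjusted by Benjamini-Hochberg over all seedling regions that had tags in all 6 libraries of the mark. Each ZT18-high region was represented by the seedling region that overlapped it most. Of the 686, 675 had one, and 541 (539 seedling regions) passed the filter for H3K9ac, 627 (624) for Kbu and 623 (620) for Kcr. Regions lost altogether under a treatment, such as the 50 above, are not among those tested. Starvation and submergence were compared with the same control libraries, so the 2 comparisons are not independent of each other. Tags were summed over peaks that were called in each library separately, so a change can be one of called width, of tag density or of both. For most of the largest called changes described below, the change per kb of called peak is given beside it. Where it is not given, the part of called width is left unshown.

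H3K9ac was lower in treated seedlings at close to 1 in 3 of the ZT18-high regions tested. After starvation 164 of 539 fell and 102 rose at an adjusted p under 0.05 (30.4% and 18.9%), where the background over all 18611 regions tested was 20.9% lower and 18.3% higher. After submergence 171 fell and 75 rose (31.7% and 13.9%), with a background of 18.6% lower and 14.3% higher. The median log2 change was -0.10 after starvation and -0.11 after submergence, against 0.0039 and 0.0052 over all regions tested. The shares that rose were thus near the background while the shares that fell stood above it. Without the 27 regions with an input peak, 160 of 517 fell and 97 rose after starvation, and 167 fell and 66 rose after submergence. Leaves hold several cell types, and fewer cells with the mark and less of it per cell cannot be told apart in these libraries.

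Kbu was also lower at a larger share of the ZT18-high regions than of all regions. After starvation Kbu fell at 127 of 624 regions and rose at 52 (20.4% and 8.33%), with a background over 25338 regions of 16.6% lower and 12.5% higher. Over the seedling regions that match the 18346 leaf regions, a closer background, 9.81% were lower and 15.2% higher. After submergence Kbu fell at 80 and rose at 35 (12.8% and 5.61%), with a background of 5.22% lower and 4.92% higher, and of 5.59% lower and 3.03% higher over the leaf regions. The share that rose was thus below both backgrounds after starvation and above both after submergence. Under the rule of a 1.5-fold change in both replicates the share of losses after starvation was 4.33%, against 4.84% of all regions, so no excess over all regions was found there. The share over the closer background is not given for this rule. The median log2 change of the ZT18-high regions was -0.05 after starvation and -0.08 after submergence, and without the regions with an input peak 127 and 79 of 606 fell. The Kbu counts rest on both libraries of a group: with 1 library left out they were smaller, and so were the counts over all regions. Without starvation replicate 2 the median log2 change after starvation was -0.069, against 0.0010 over all regions. Without submergence replicate 2 the median after submergence was -0.067, against 9.8e-06. Kcr changed at few regions: after starvation 21 of 620 fell and 10 rose (3.39% and 1.61%), with a background over 25771 regions of 2.27% lower and 1.41% higher, and after submergence 16 fell and 9 rose (2.58% and 1.45%), with a background of 0.931% lower and 1.41% higher.

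**Figure D3:**
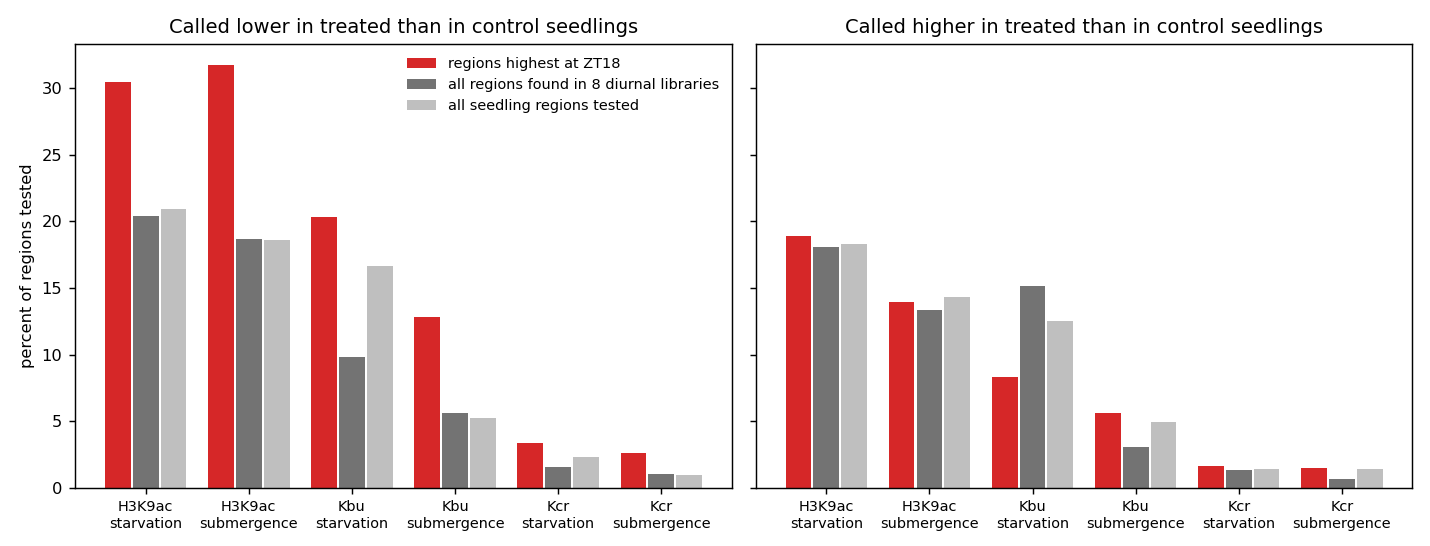
Share of regions called lower (left) or higher (right) in treated than in control seedlings by edgeR at an adjusted p under 0.05, for 3 marks and 2 treatments. Bars give the percent of regions tested, for the ZT18-high regions, for all regions found in the 8 diurnal libraries and for all seedling regions tested. The ZT18-high bar is the tallest of its 3 in every comparison on the left (30.4% against 20.4% and 20.9% for H3K9ac after starvation), while on the right it is below both others for Kbu after starvation (8.33% against 15.2% and 12.5%).

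These counts depend on the scale. With the called length of each library as an offset, which turns summed tags into tags per kb of peak, H3K9ac after starvation fell at 31 of the 539 regions and rose at 207, but all regions moved with it: the median over the 18611 regions was then 0.29, and 2.92% of all regions against 5.75% of the ZT18-high ones were called lower. With MACS tags as library sizes, Kbu after submergence fell at 163 and rose at 9, with a median of -0.17 over all regions, and Kbu after starvation fell at 66 and rose at 79, with a median of 0.12. After submergence 26.1% of the ZT18-high regions were then lower, against 12.9% of all regions. After starvation 10.6% were lower, close to the 9.88% of all regions. Kbu split into 35 higher and 52 lower after starvation and into 134 and 13 after submergence with called length as offset, the median over all regions being 0.22 in the second case. The shares lower were then 8.33% and 2.08%, against 6.78% and 0.549% of all regions. For Kcr the calls were 20 higher and 8 lower after starvation and 1 and 17 after submergence with MACS tags (medians over all regions 0.15 and -0.11), 1 and 19 after starvation and 1 and 0 after submergence with called length, where 56 were lower at an unadjusted p under 0.05 by edgeR (DESeq2, on its own scale, called 10 lower at an adjusted p under 0.05), and 9 and 9 after submergence with a score of at least 100. DESeq2 called fewer regions, with 62 lower and 28 higher for H3K9ac after starvation and 52 and 14 after submergence, which made 11.5% and 9.65% of the ZT18-high regions lower against 7.37% and 4.48% of all regions. Relative to all regions tested, the median of the ZT18-high regions stayed lower for H3K9ac and Kbu in each of these settings. With MACS tags Kcr was lower at 1.29% after starvation and 2.74% after submergence, against 1.09% and 1.10% of all regions. With called length these shares were 3.06% and 0%, against 2.01% and 0.0272%. With a score of at least 100, 1.64% were lower after submergence, against 0.766%.

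**Figure D4:**
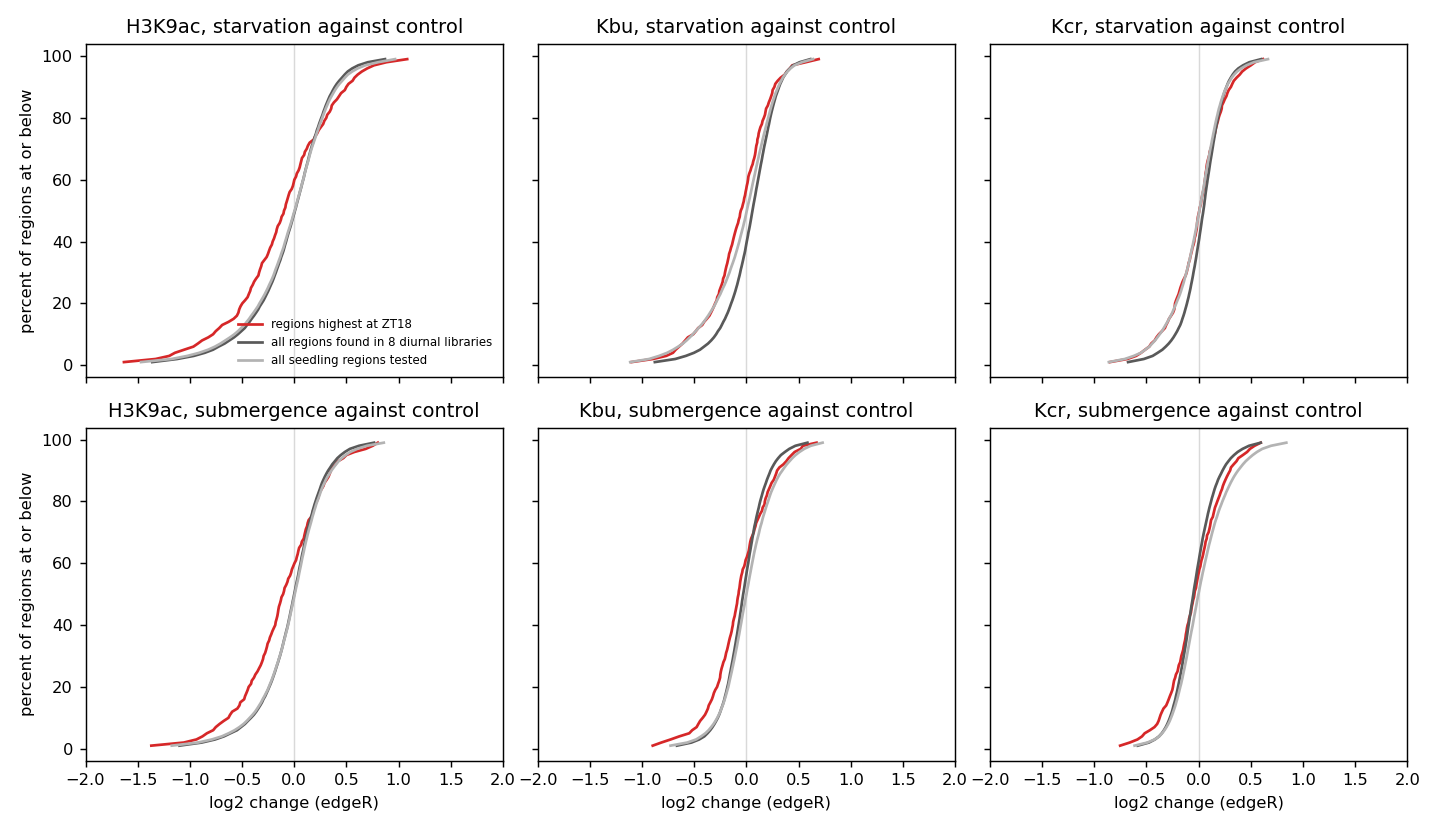
Distribution of the log2 change of treated over control seedlings, as the percent of regions at or below each value (percentiles 1 to 99). Red is the ZT18-high regions, dark grey all regions found in the 8 diurnal libraries and light grey all seedling regions tested. For H3K9ac the red curve lies to the left of both grey ones over the lower part of the range in both treatments, with medians of -0.10 and -0.11, and for Kcr the curves nearly coincide around 0.

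Losses were frequent at the regions whose leaf level climbed from ZT0 through ZT18. Of the 105 such regions, 73 seedling regions were tested for H3K9ac. Of them 34 (46.6%, against 18.6% of all regions) fell and 5 rose after submergence, with a median log2 change of -0.25. Kbu fell at 27 of 97 (27.8%, against 5.22% of all regions) and rose at 1 after submergence. After starvation Kbu fell at 32 (33.0%, against 16.6%) and rose at 3. H3K9ac after starvation fell at 26 of the 73 and rose at 11. The share that fell, 35.6%, was above the 20.9% of all regions. It was below the 37.6% and 39.6% of the regions highest at ZT6 and at ZT12. These counts were smaller when 1 library was left out: Kbu fell at 8 after submergence without submergence replicate 1 or 2 and at 11 without control replicate 2, against 1.71%, 1.80% and 2.38% of all regions, Kbu after starvation at 21 and 20 without starvation replicate 1 and 2, and H3K9ac after submergence at 22 without submergence replicate 2. In the regions with the order ZT6 < ZT12 < ZT0 < ZT18, in which ZT0 came next after ZT18, H3K9ac fell at 46 of 188 (24.5%) and rose at 38 (20.2%) after submergence, with a median of 0.02. In those with the order ZT6 < ZT0 < ZT12 < ZT18 it fell at 80 of 254 (31.5%) and rose at 29 (11.4%), with a median of -0.12. The difference between these orders was not tested. After starvation H3K9ac fell at 57 of 188 (30.3%) in the first of these 2 orders and at 72 of 254 (28.3%) in the second. With DESeq2, 9 of the 73 climbing regions (12.3%) were lower for H3K9ac after submergence, against 4.48% of all regions, and with called length as offset 18 were (24.7%), against 7.67%. Regions with a leaf ratio of at least 2-fold and those under it had close values: 28.5% of 295 and 32.7% of 245 fell after starvation, and 32.5% and 31.0% after submergence.

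For comparison, regions chosen by the same rule for the other times gave other values. For H3K9ac after starvation the shares called lower were 30.4% in the ZT18-high regions, 21.9% in those highest at ZT0, 37.6% at ZT6 and 39.6% at ZT12. After submergence they were 31.7%, 23.3%, 33.2% and 21.5% in the same order. The H3K9ac shares called higher after submergence were 13.9%, 23.4%, 16.2% and 16.8%. For Kbu the shares called lower after starvation were 20.4%, 15.0%, 23.9% and 22.1% in the same order. The Kbu losses after starvation were thus more frequent in the regions highest at ZT6 and at ZT12. After submergence the Kbu shares called lower were 12.8%, 7.25%, 11.5% and 7.35%. No test of the differences between these sets was made.

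Typical seedling levels differed little. Over the 539 regions the median H3K9ac level was 42.3 and 42.9 TMM-scaled RPM in starved and 43.0 and 43.2 in submerged seedlings, against 47.2 and 46.4 in controls. Over the 16100 seedling regions that match all leaf regions it was 48.8 and 48.6 in starved and 48.7 and 48.5 in submerged seedlings, against 49.1 and 49.1 in controls.

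The size of the called changes was moderate. Among the H3K9ac regions that fell, the median log2 change was -0.57 after starvation and -0.48 after submergence, and 30 and 12 of them fell by more than 2-fold. Among those that rose, the medians were 0.49 and 0.40, and 7 and 4 passed 2-fold. For Kbu the medians of the regions that fell were -0.50 after starvation and -0.47 after submergence.

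The largest falls in summed tags came with shorter peaks. Of the 36 named changes of the 3 marks, 28 were smaller by over 1.5 times per kb of called peak, 4 were within 1.5 times and 4 had the other sign, and 19 passed the test with the same sign. Changes per kb were not centred on the typical region. Their median over all regions tested was 0.29 for H3K9ac after starvation and 0.038 after submergence. For Kbu these medians were 0.060 and 0.22, and for Kcr -0.054 and 0.046. The sign and the test of a change per kb are taken against 0, so the counts above do not show a change relative to the typical region. Each change per kb is to be read against its median. At chr1:1902468-1905778 H3K9ac was 31.8 and 37.2 TMM-scaled RPM in starved and 48.4 and 45.8 in submerged seedlings, against 167 and 165 in controls. The fall was a log2 of -2.26 ± 0.08 after starvation (edgeR, SE, adjusted p = 1.13e-06) and of -1.82 ± 0.06 after submergence (adjusted p = 1.23e-06), and no treated library came near the controls. The called peak measured 1527 and 1857 bp in starved and 2537 and 2627 bp in submerged seedlings, against 6217 and 6452 bp in controls, and per kb of called peak the fall was a log2 of -0.36 after starvation and -0.53 after submergence. In leaves the region gave 20.3 and 24.7 RPM at ZT0, 62.8 and 45.6 at ZT6, 45.5 and 49.8 at ZT12, and 60.7 and 61.5 at ZT18, so it was low only at ZT0.

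The part of called width differed between the other large falls. At chr3:6875858-6877821 H3K9ac was 46.4 and 63.9 in submerged seedlings against 239 and 224 in controls (log2 -2.05 ± 0.11, adjusted p = 7.24e-06), with 134 and 130 in starved seedlings (log2 -0.81, adjusted p = 0.000628). The seedling region there was wider than the leaf region (6874188 to 6881520), and its called length was 1374 and 2317 bp in submerged seedlings against 7122 and 7261 bp in controls. Per kb of called peak the log2 change was -0.11 and did not pass the test, so the fall in summed tags went with a shorter called peak. Tags outside called peaks have no values, so a narrower mark and a weaker one cannot be told apart there. At chr10:21759879-21762549 it was 10.5 and 11.8 in starved seedlings against 44.6 and 39.6 in controls (log2 -1.91 ± 0.16, adjusted p = 5.47e-05, and -0.68 per kb). At chr3:12106768-12108645, a region that rises from ZT0 to ZT18 in leaves, it was 59.5 and 54.4 in submerged seedlings against 184 and 188 in controls (log2 -1.71 ± 0.06, adjusted p = 1.26e-06), with 100.2 and 97.6 in starved seedlings, and per kb the log2 change after submergence was -0.93. All 3 marks fell after both treatments there, Kbu to 66.3 and 67.7 in starved and 55.2 and 62.1 in submerged seedlings, against 104 and 105 in controls.

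A few regions had several times the H3K9ac tags under stress, again mostly with wider peaks. At chr3:5174900-5177552 it was 152 and 145 in starved and 137 and 131 in submerged seedlings, against 48.9 and 45.5 in controls (log2 1.65 ± 0.07 after starvation and 1.5 ± 0.06 after submergence, adjusted p = 1.85e-06 and 2.24e-06 by edgeR). Its called peak measured 4514 and 4679 bp in starved and 5223 and 4951 bp in submerged seedlings, against 2014 and 1809 bp in controls, and per kb the log2 change was 0.38 after starvation and 0.09 after submergence, the second not past the test. Kbu at the same place was 56.3 and 56.6 in submerged seedlings against 29.3 and 23.0 in controls (log2 1.11 ± 0.28, adjusted p = 0.0383, and 0.13 per kb, not past the test). At chr2:19648371-19649721 H3K9ac was 85.4 and 91.2 in starved seedlings against 25.5 and 27.4 in controls (log2 1.74 ± 0.09, adjusted p = 4.43e-06), with called lengths of 2797 and 2799 bp against 1336 and 1390 bp and a log2 change of 0.70 per kb. In leaves both belong to the order ZT6 < ZT12 < ZT0 < ZT18, with ZT6 as the lowest time. At chr8:732052-735586 the 2 submerged libraries lay far apart, with 69.7 and 37.9 against 19.8 and 15.6 in controls (log2 1.56 ± 0.29, adjusted p = 0.00411, and 0.58 per kb).

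**Figure D5:**
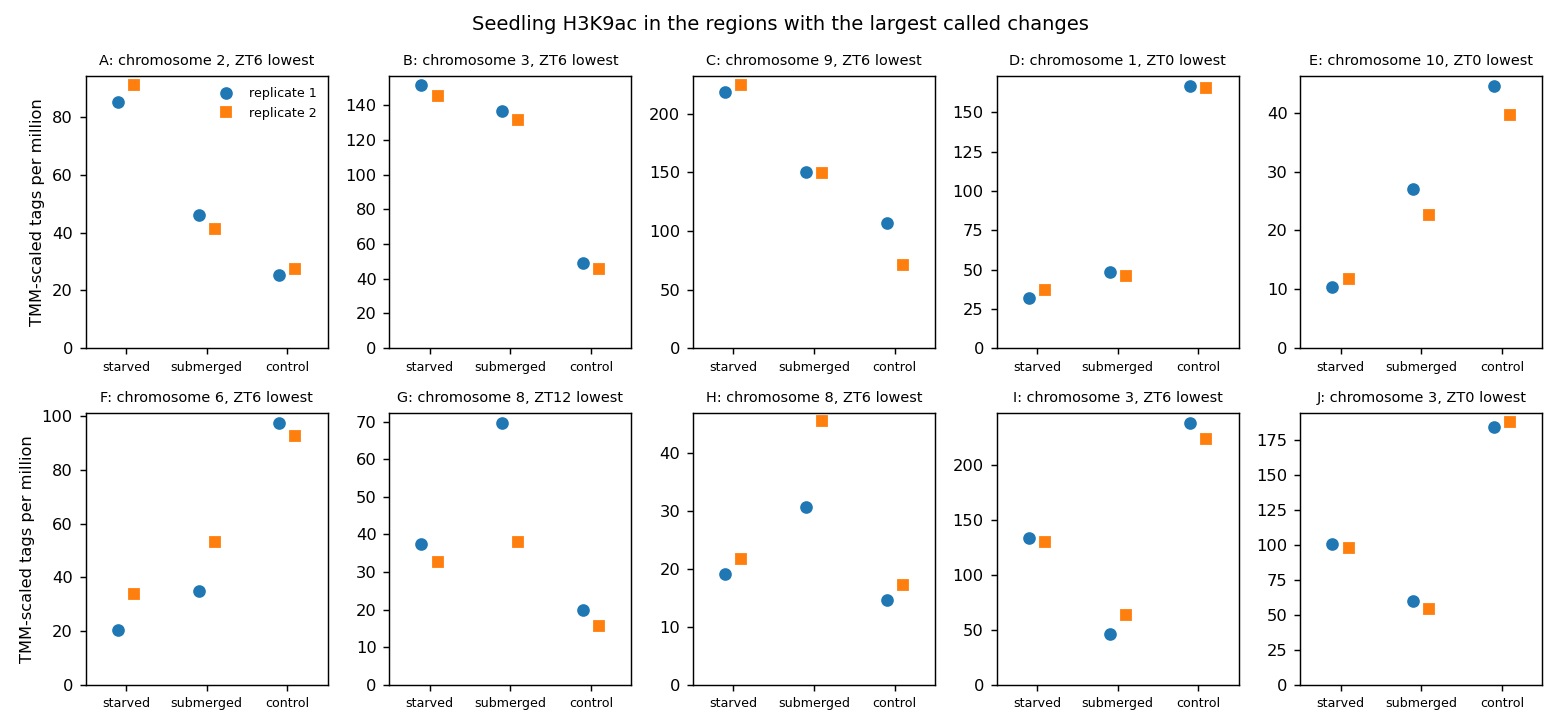
Seedling H3K9ac at the 10 ZT18-high regions with the 3 largest called rises or falls under either treatment. The horizontal axis gives the starved, submerged and control groups and the vertical axis TMM-scaled RPM from 0; circles are replicate 1 and squares replicate 2. B (chromosome 3) is high in both stresses at 131 or more against at most 48.9 in controls, D (chromosome 1) is low in both, and in G and H the 2 submerged libraries differ widely.

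A second region had fewer tags of all 3 marks under both treatments. At chr7:12655376-12656755 H3K9ac was 74.1 and 76.3 in starved and 56.9 and 61.3 in submerged seedlings, against 180.2 and 207.5 in controls. Kbu was 29.2 and 27.2 in starved and 28.3 and 30.9 in submerged seedlings, against 62.2 and 59.6 in controls. Kcr was 25.4 and 29.1 in starved and 27.4 and 29.5 in submerged seedlings, against 67.9 and 62.9 in controls. All 6 comparisons passed the test, with adjusted p between 3.85e-06 and 0.00411 by edgeR. The called Kbu peak covered 1188 and 1362 bp in submerged seedlings against 3692 and 3510 bp in controls. Per kb of called peak Kbu was higher after submergence (log2 0.46, against a median of 0.22 over all regions). Its fall in summed tags thus went with a shorter called peak, and a narrower mark and a weaker one cannot be told apart. Kcr per kb was 0.075 after starvation and 0.36 after submergence on the log2 scale.

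Kbu and Kcr had their own largest changes. The largest Kbu loss after starvation was at chr3:6443492-6446310, with 12.0 and 15.4 RPM in starved seedlings against 46.5 and 38.0 in controls (log2 -1.62 ± 0.15, adjusted p = 0.000254, and -1.05 per kb). After submergence it was at chr1:11798622-11800103, with 25.9 and 28.5 in submerged seedlings against 65.6 and 68.0 in controls (log2 -1.29 ± 0.10, adjusted p = 0.000426). Kcr fell at the same place, to 28.8 and 29.3 in submerged seedlings against 60.6 and 69.9 in controls (log2 -1.17 ± 0.11, adjusted p = 0.00481). The peaks there were also narrower, with called Kbu lengths of 1488 and 1490 bp in submerged seedlings against 3147 and 2953 bp in controls, and per kb the log2 changes of -0.26 for Kbu and -0.18 for Kcr did not pass the test.

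The largest Kbu rise was at chr2:28715046-28717017, with 680 and 632 in submerged seedlings against 269 and 282 in controls (log2 1.25 ± 0.10, adjusted p = 0.000426). This region is one of the 27 with an input peak, and its seedling region was called over 5484 and 5131 bp in submerged seedlings against 2559 and 2902 bp in controls, with a log2 change of 0.29 per kb. The largest Kbu rise after starvation was at chr1:19918416-19920102, with 28.7 and 26.3 in starved seedlings against 13.5 and 12.5 in controls (log2 1.08 ± 0.13, adjusted p = 0.000991, and 0.37 per kb). The largest Kcr loss was at chr2:27658520-27660802, with 22.6 and 18.1 in starved seedlings against 55.6 and 50.4 in controls (log2 -1.38 ± 0.12, adjusted p = 0.00271, and -0.93 per kb). Kcr rises stayed under 2-fold, the largest being 54.8 and 49.6 in submerged seedlings against 35.6 and 26.9 in controls at chr1:40784781-40787225 (log2 0.75 ± 0.15, adjusted p = 0.0478), where the change per kb was -0.21.

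Many regions called lower for H3K9ac were called lower for Kbu too, at ZT18-high regions and elsewhere. Among the 529 seedling regions tested for both marks, 64 were called lower for both after starvation, which is 39.5% of the 162 that lost H3K9ac and 74.4% of the 86 that lost Kbu. Over all 18291 regions tested for both marks these shares were 31.4% and 71.7%. After submergence 46 were lower for both, 27.2% of 169 and 74.2% of 62, against 19.9% and 66.1% over all regions. The only opposite call was 1 region lower in H3K9ac and higher in Kbu after starvation. Kcr was called at fewer regions: of those tested for both, 12 of 12 lower in Kcr after starvation and 9 of 11 after submergence were lower in H3K9ac, and 6 of 10 and 5 of 8 that were higher in Kcr were higher in H3K9ac. Over all regions 89.8% and 83.9% of the Kcr falls and 72.2% and 52.9% of the rises were shared in this way. Each mark has its own control libraries, and the merged regions are the same for all 3 marks.

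The H3K9ac share of the 3 marks had lower medians at the ZT18-high regions than over all leaf regions for each treatment and replicate (no test was made). Its share of the summed TMM-scaled tags of H3K9ac, Kbu and Kcr had a median of 33.8% and 33.7% in starved and 34.7% and 34.1% in submerged seedlings over 527 regions, against 36.1% and 35.3% in controls. Over the 15832 regions matching all leaf regions it was 36.0% and 35.9% in starved and 37.7% and 37.5% in submerged seedlings, against 37.4% and 37.2% in controls. Each mark is scaled to its own total, so these shares compare regions and not absolute amounts.

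At the 12 regions with the largest leaf ratios, more H3K9ac falls than rises passed the test in seedlings. No seedling change per kb of called peak is given for these regions. The most extreme, chr1:17974965-17978285, had 100.2 and 93.4 RPM of H3K9ac in starved seedlings against 114 and 126 in controls (log2 -0.31, adjusted p = 0.0149 by edgeR), and the leaves of 30-day-old plants, on their own scale, were lowest at the same ZT12. At chr4:29498383-29504985 H3K9ac was 50.4 and 57.3 in submerged seedlings against 31.2 and 32.7 in controls, and Kbu 48.8 and 45.1 in starved seedlings against 31.1 and 32.5. At chr8:21721996-21724519 H3K9ac was 49.8 and 56.6 in submerged seedlings against 97.0 and 99.3 in controls (log2 -0.87), while starved seedlings had 112 and 112 (log2 0.19, adjusted p = 0.0503, not past the test). Rises of H3K9ac among the 12 passed the test only after submergence, at chr4:29498383-29504985 (log2 0.76) and chr1:34311603-34313662 (log2 0.54). Falls passed it under both treatments at chr1:29080878-29082375 (log2 -0.53 after starvation and -0.68 after submergence) and chr2:24829853-24833054 (-0.73 and -0.72). At chr7:23046713-23056795 the fall passed it after submergence (log2 -0.34). At chr2:30094081-30096672 H3K9ac was 20.9 and 21.6 in starved and 27.6 and 29.7 in submerged seedlings, against 48.1 and 57.6 in controls. At chr1:1214399-1216854, the stepwise riser, 17 of the 18 seedling libraries had no called peak, and the remaining one, starved H3K9ac replicate 1, had 65 tags. At chr10:20893274-20897064 no starved H3K9ac library had a peak, while submerged seedlings had 70 and 83 tags and controls 155 and 162, and this region therefore did not enter the test.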

How the data were processed

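The study's methods and processing notes name Trimmomatic, Bowtie2 2.2.5, SAMtools 0.1.19 for removal of duplicates and MACS 1.4.2 for peaks on the MSU7.0 build; 27 lists were used and the 14 RNA-seq samples were not analysed here. The authors deposited for each peak a raw tag count, a fold enrichment ratio and a score (a log-transformed p, at least 50), made without the input as control. Only tags inside called peaks have values. Regions, scaling and summaries were made in Python 3.11.15 (pandas 2.3.3), and tests in R 4.3.3 with edgeR 4.0.16 and DESeq2 1.42.0. Standard errors were taken from the F statistic. The test was checked on simulated data. The regions and comparisons were chosen with earlier results of these data known. Regions named in the text were the 12 with the largest ratio, 3 on each side of the limit, the 3 with most tags at ZT18, the longest run and, per mark and treatment, the 3 largest called rises and falls, of which some are described. Gene starts, gene lists, motifs and sequences were not used here, since the annotation at hand is of another build. Alternatives were other scalings, filters, overlaps and tools, and leaving out each library.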

Additional observations from a re-analysis of the deposited data

Results flagged for a closer look

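The input library, which entered neither the selection of regions nor any test, had peaks at 27 of the 686 regions highest at ZT18. With no other library to set it against, the limit was the 3 counts that a count of 0 allows. In these 27 regions the median level was 44.3 and 29.9 RPM at ZT0, 19.7 and 25.3 at ZT6, 29.4 and 35.2 at ZT12, and 51.8 and 60.5 at ZT18, and ZT0 replicate 1 lay above ZT18 replicate 1 in 23 of them. In the other 659 regions it did so in 26. Several of the 27 lie close together, such as the 4 on chromosome 11 between positions 12271068 and 12318062 and the 2 on chromosome 12 between 11990850 and 12005898. Of the 22 seedling regions among them tested for H3K9ac, 4 fell (18.2%) and 9 rose (40.9%) after submergence, against 18.6% and 14.3% of all regions tested. After starvation 4 fell (18.2%) and 5 rose (22.7%), against 20.9% and 18.3% of all regions tested.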

How the results depend on the processing

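The rule took 450 regions with MACS tags as the scale and between 676 and 1086 when 1 leaf library was left out, against 686. The other settings took between 486 and 786 regions; the 786, with tags per kb of called peak, held 418 of the 686 (60.9%), and counts of regions with a control peak stayed within 1.5 times in every setting tried.

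For the seedling counts, given as higher and lower regions, DESeq2 called 28 and 62 for H3K9ac after starvation, 14 and 52 after submergence, 13 and 60 for Kbu after starvation, 7 and 23 after submergence, 3 higher for Kcr after starvation, and 4 and 10 after submergence. A 1.5-fold change in both replicates was met by 24 and 65, 14 and 51, 4 and 27, 6 and 17, 1 and 9, and 3 and 10 in the same order. The shares lower by that rule were 12.1%, 9.46%, 4.33%, 2.72%, 1.45% and 1.61% of the ZT18-high regions, against 7.62%, 4.30%, 4.84%, 1.05%, 1.51% and 0.605% of all regions. By DESeq2 the Kbu shares higher and lower were 2.08% and 9.62% after starvation, against 1.70% and 6.71% of all regions. After submergence they were 1.12% and 3.69%, against 0.967% and 1.31%. For Kcr, DESeq2 gave 0.484% higher after starvation, against 0.640%, and 0.645% and 1.61% after submergence, against 1.13% and 0.559%. MACS tags as library sizes gave 79 and 66 for Kbu after starvation, 9 and 163 after submergence, 20 and 8 for Kcr after starvation, and 1 higher after submergence. For Kbu after starvation 10.6% of the ZT18-high regions were then lower, against 9.88% of all regions. Called length as offset gave 207 and 31 for H3K9ac after starvation, 95 lower after submergence, 52 lower for Kbu after starvation, 134 and 13 after submergence, 1 higher for Kcr after starvation, and 1 and 0 after submergence, where 56 were lower at an unadjusted p under 0.05 by edgeR (DESeq2, on its own scale, called 10 at an adjusted p under 0.05). No filter gave 48 higher for H3K9ac after submergence, 8 and 20 for Kbu after submergence, 6 and 13 for Kcr after starvation, and 3 and 6 after submergence, and a score of at least 100 gave 9 lower for Kcr after submergence. When 1 library was left out, the counts were between 24 and 37 higher and 72 and 104 lower for Kbu after starvation, 7 and 25 higher and 23 and 52 lower after submergence, 0 and 3 higher and 4 and 7 lower for Kcr after starvation, and 0 and 2 higher and 3 and 6 lower after submergence. The counts of 0 were found without control replicate 1 (61 higher at an unadjusted p under 0.05 by edgeR) and without submergence replicate 1 (39); DESeq2 with all libraries called 3 and 4. The H3K9ac counts stayed within 1.5 times there. Leaving out control replicate 2 kept both Kbu counts after starvation within 1.5 times, and leaving out control replicate 1 kept the higher Kbu count after submergence. Any other library left out moved each of these Kbu and Kcr counts further. The Kbu and Kcr counts over all regions tested were also smaller whenever 1 library was left out. The median Kbu change of the ZT18-high regions stayed below that over all regions each time. Per kb of called peak, 28 of the 36 named changes were smaller by over 1.5 times, 13 no longer passed the test, and 4 changed sign: chr7:12655376-12656755 had 0.46 for Kbu after submergence, 0.075 for Kcr after starvation and 0.36 for Kcr after submergence, and chr1:40784781-40787225 had -0.21 for Kcr after submergence. The cause of these shifts was not tested. The changes per kb were not centred on the typical region, and their medians over all regions are given above.

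The replicate numbers are shared by all groups but name no common plant or day. With the numbers as a replicate block, Kcr gave 0 higher and 11 lower after starvation (77 higher at an unadjusted p under 0.05 by edgeR; DESeq2 with no block called 3 at an adjusted p under 0.05) and 2 higher and 5 lower after submergence, and the other counts stayed within 1.5 times. The deviations of same-numbered libraries had correlations of 0.098, 0.094 and 0.11 for H3K9ac and of 0.22, 0.065 and 0.042 for Kbu over regions. Same-numbered Kcr libraries of starved and control seedlings deviated in opposite directions (correlation -0.14 over regions), and the pairing with the 2 starved libraries exchanged, chosen after seeing the data, gave 14 and 27 after starvation and 9 and 23 after submergence. The counts without regions that overlap an input peak were likewise chosen after seeing the data. Positions relative to gene starts were not run.

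All 18346 shared regions needed a peak in ZT18 replicate 2, which had 2795019 tags in them, and regions with no peak at this depth could not be selected. The seedling test covers only regions called in each of the 6 libraries of its mark, so complete losses are seen only in the counts of peaks.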
